A study of Mus musculus with 6 samples.

Results

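Conventional CD4 T cells of the mouse lung were taken as single cells that carried mRNA of the T cell receptor complex and of Cd4, the co-receptor of helper T cells, and none of Foxp3, the factor that marks regulatory T cells. A cell counted when it held at least 2 UMIs (unique molecular identifiers, each standing for 1 captured mRNA molecule) of Cd3d, Cd3e, Cd3g and Trac together and at least 1 UMI of Cd4. It also had to hold no UMI of Cd8a, Cd8b1, Foxp3, the B cell genes Cd79a and Ms4a1, the endothelial gene Cdh5 and the alveolar macrophage gene Marco. The cells were thus selected on measured UMIs of 12 genes, whose levels are not results. This rule took 572 of the 76800 cells kept over 6 libraries. The lungs were from male C57BL/6J mice 12 weeks old, with 2 mice, each its own library, in each of 3 groups formed by random assignment. The SLC plus LPS mice had the subcoeruleus nucleus, a small brainstem centre named SLC in the labels, activated 7 times (labelled SLC-Gq) and also received lipopolysaccharide (LPS), the endotoxin of Gram-negative bacteria. The LPS mice received 1 mg/kg LPS, and the control mice received PBS. Lungs were taken on day 3 after treatment, digested with enzymes and captured on the BD Rhapsody microwell system. How the activation was driven and when it was given relative to LPS are not given in the sources used here. No mice with activation alone were analysed here, so a difference between SLC plus LPS and control holds both treatments.

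CD4 T cells recognise peptides on MHC class II molecules and steer other immune cells through cytokines and through surface ligands such as CD40 ligand. Naive cells circulate between blood and lymph nodes and carry CCR7, whereas cells that have met antigen take up helper programmes, of which Th1 is built on Tbx21 and interferon gamma, Th2 on Gata3 and interleukins 4, 5 and 13, and Th17 on interleukin 17. The lung holds both passing and resident CD4 T cells, and interferons induce in them, as in most cells, a broad set of antiviral and antigen presentation genes.

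The libraries held 165547 to 253281 barcodes and 31589233 to 48641470 UMIs in total, and 11608 to 13710 cells each passed the limits, which were 500 UMIs or more from no fewer than 300 genes with mitochondrial transcripts below 20%. Between 0 and 6 kept barcodes were shared by any pair of libraries. The gate held 37 and 64 cells in the SLC plus LPS libraries, 65 and 89 in the LPS libraries and 185 and 132 in the control libraries, so the SLC plus LPS values rest on the fewest cells. Summed UMIs of the gated cells were 94079 and 106746 in SLC plus LPS, 161774 and 251416 in LPS and 396556 and 254053 in control. A doublet caller marked 8 of the 572 cells, which were kept. Free RNA, estimated from fibroblast and epithelial transcripts in the gated cells, came to 13.1% and 16.3% of their UMIs in SLC plus LPS, 20.1% and 47.4% in LPS and 23.9% and 33.6% in control. LPS replicate 2 stood apart here: without its 3 cells that carried many UMIs of another cell type, the estimate was 2.67%. With this library left out, edgeR called 69 genes for LPS against control and 63 for SLC plus LPS against control. It enters the estimate of spread that all groups share, so leaving it out also alters the test between the other groups.

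Gate genes check nothing, so the label was compared with other T cell genes. Of the 572 cells, 334 had exactly 1 Cd4 UMI and 159 had exactly 2 UMIs of the 4 receptor genes, and 182 further cells met every condition but had only 1 such UMI. Trbc2, the constant region of the T cell receptor beta chain, was found in 78.0% of the gated cells and in 2.49% of 2851 B cells, which should lack it and give the background. Il7r, the interleukin 7 receptor, was found in 61.0% of CD4 T cells and 2.21% of B cells, and the costimulatory receptor Icos in 60.3% and 0.737%. Median depth was 1791 UMIs in the CD4 T cells and 1238 UMIs in the B cells. After thinning each cell to 500 UMIs, Icos was found in 32.9% of CD4 T cells against 0.211% of B cells and Il7r in 31.3% against 0.912%. These shares set the cells apart from the background at equal depth.

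Against 760 CD8 T cells gated in the same way, genes of the helper lineage stood higher in the CD4 gate in 6 of 6 libraries. Cd40lg, the ligand through which helper T cells license B cells, was found in 51 CD4 T cells (8.92%, and 2.45% when thinned), in 0.526% of CD8 T cells and in 0.0702% of B cells. Maf, a factor of helper T cell differentiation, was found in 41.3% of CD4 T cells against 7.11% of CD8 T cells, and in 17.8% against 2.37% after thinning. Icos, Ctla4, Tnfrsf4, Cxcr6, Rora, Rgs1, Cd28 and Il7r also had a higher level (UMIs per 1000000 UMIs of the summed cells, CPM) in the CD4 gate of all 6 libraries. The effector and recirculation genes Ccl5, Nkg7, Ly6c2, Ccr7 and Klf2 were lower in the CD4 gate of all 6. Zbtb7b, the master factor of the CD4 lineage, was too sparse to use, at 0 to 10.1 CPM. Because the gate used Cd4 and the CD8 genes, these differences describe the selected cells and were not tested.

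**Figure D1:**
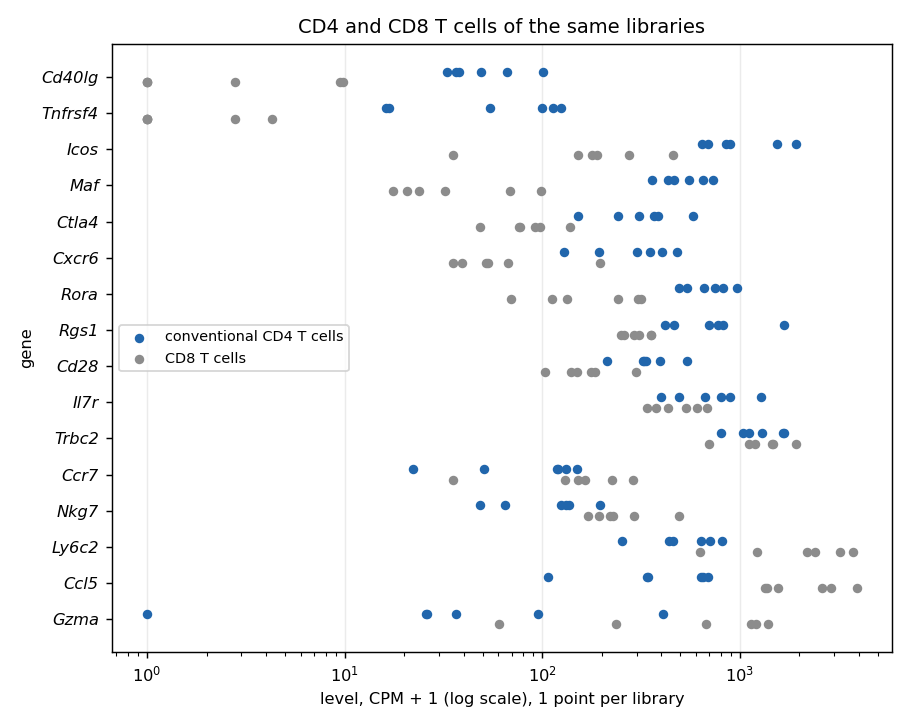
Levels of 16 genes (CPM + 1, log axis) in CD4 T cells (blue) and in CD8 T cells (grey), with 1 point per library and cell type, 6 libraries each. The helper genes Cd40lg, Tnfrsf4, Icos and Maf are higher in the CD4 gate in 6 of 6 libraries, and Ccl5, Nkg7, Ly6c2 and Ccr7 are lower in 6 of 6.

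Genes of the helper programmes were found in a minority of the cells. A gene of the Th2 set (Gata3, Il4, Il5, Il13, Ccr4, Il1rl1) was found in 130 of 572 cells (22.7%), one of the Th1 set (Tbx21, Ifng, Cxcr3) in 73 (12.8%) and one of the Th17 set (Il17a, Il17f, Il23r, Ccr6) in 59 (10.3%). These 3 sets were chosen after the values were seen. No gene of any of them was found in 352 cells (61.5%). Overlaps were few, with 24 cells positive for both Th1 and Th2 sets, 16 for Th2 and Th17 and 5 for Th1 and Th17.

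Most of the Th2 count came from Gata3, found in 102 cells (17.8%, and 5.42% thinned) against 0.737% of B cells. The Th2 cytokines were at or near 0, since Il4 and Il5 each had a UMI in 2 cells, and Il13 in 0 of 572 cells, which allows a share of cells with a UMI of up to 0.524% and sets no limit on cells that express it. Il17a, the signature Th17 cytokine, was found in 23 cells (4.02%), Il17f in 13 and both in 8, against 0.0702% of B cells for Il17a and 0 for Il17f. The gate set no condition on genes of gamma delta T cells or NK cells. The gamma delta markers Trgc1, Trgc2 and Trdc were found in 6.12%, 5.07% and 2.45% of gated cells, against 1.97%, 3.82% and 2.24% of CD8 T cells. The NK marker Klrb1c was found in 4.55% against 1.45%. Whether cells with Il17a or Il17f were conventional Th17 cells was not tested. The Th1 factor Tbx21 was found in 28 cells (4.90%), its chemokine receptor target Cxcr3 in 37 (6.47%) and Ifng in 14 (2.45%). In B cells the 3 shares were 0.351%, 0.246% and 0.175%. Only 2 CD4 T cells had both Tbx21 and Ifng. Il2, Il21 and the follicular receptor Cxcr5 were found in 4, 4 and 5 cells. Cxcr5 was found in 1.97% of CD8 T cells and 9.65% of B cells, and Il2 in 1.32% and 0.982%. The B cell share was not taken as a background for Cxcr5. Too few CD4 T cells held Cxcr5 or Il2 for either to be read as expression here. The anti-inflammatory cytokine Il10 was found in 22 CD4 T cells (3.85%), near the 2.53% of B cells. Intervals and shares in cells cover counting error only.

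At least 1 of the naive T cell genes Ccr7 and Lef1, a pair also chosen after the values were seen, was found in 211 of the 572 cells (36.9%). By library this share was 29.7% and 18.75% in SLC plus LPS, 24.6% and 50.6% in LPS, and 40.0% and 40.15% in control. Both SLC plus LPS libraries lay below both control libraries, and the LPS libraries lay on either side of control. Median depth of the gated cells was 1576 and 1379.5 UMIs in SLC plus LPS, 1743 and 2290 in LPS and 1875 and 1497 in control. The library with the highest share was thus the deepest, and the one with the lowest share the shallowest. These shares were not thinned to equal depth, and the part of depth in them was not tested. Ctla4, an inhibitory receptor carried by activated and regulatory T cells, was found in 178 cells (31.1%) against 5.12% of B cells. In 41 of those cells Ikzf2, a gene typical of regulatory T cells, was found as well. Whether some gated cells were regulatory T cells whose Foxp3 was not captured was not tested.

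CD4 T cells made up a smaller share of all kept cells in both LPS-treated groups than in control, without overlap between the libraries. They were 0.276% (95% exact binomial interval 0.194 to 0.380%) and 0.495% (0.381 to 0.631%) in SLC plus LPS, 0.474% (0.366 to 0.604%) and 0.767% (0.616 to 0.943%) in LPS, and 1.46% (1.26 to 1.68%) and 1.06% (0.888 to 1.26%) in control. Group means were 0.385 ± 0.155% in SLC plus LPS, 0.620 ± 0.207% in LPS and 1.26 ± 0.282% in control (SD, n = 2 each). SLC plus LPS minus control was -0.875 percentage points and LPS minus control was -0.640 points, each with p = 0.3333 in a two-sided exact permutation test, the smallest p that 2 libraries against 2 allow. SLC plus LPS and LPS overlapped (difference -0.235 points, exact permutation p = 0.667). With every cell thinned to 500 UMIs before gating, the shares were 0.0596% and 0.0773% in SLC plus LPS, 0.102% and 0.0603% in LPS and 0.181% and 0.169% in control.

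Among cells positive for the CD3 complex (3586 after the B cell, endothelial and macrophage genes were excluded), the CD4 share was less spread. It was 14.9% and 13.4% in SLC plus LPS, 12.2% and 15.4% in LPS and 20.8% and 15.3% in control. LPS replicate 2 and control replicate 2 nearly coincide, so LPS and control overlap, with a difference of -4.26 points (exact permutation p = 0.667). SLC plus LPS differed from LPS by 0.346 points (exact permutation p = 1) and from control by -3.91 points (p = 0.3333). With every cell thinned to 500 UMIs before gating, this share was 8.08% and 7.46% in SLC plus LPS. It was then 9.52% and 5.07% in LPS and 9.24% and 6.56% in control, so SLC plus LPS overlapped with control. A share does not count cells per lung: fewer CD4 T cells and more cells of other types cannot be told apart.

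**Figure D2:**
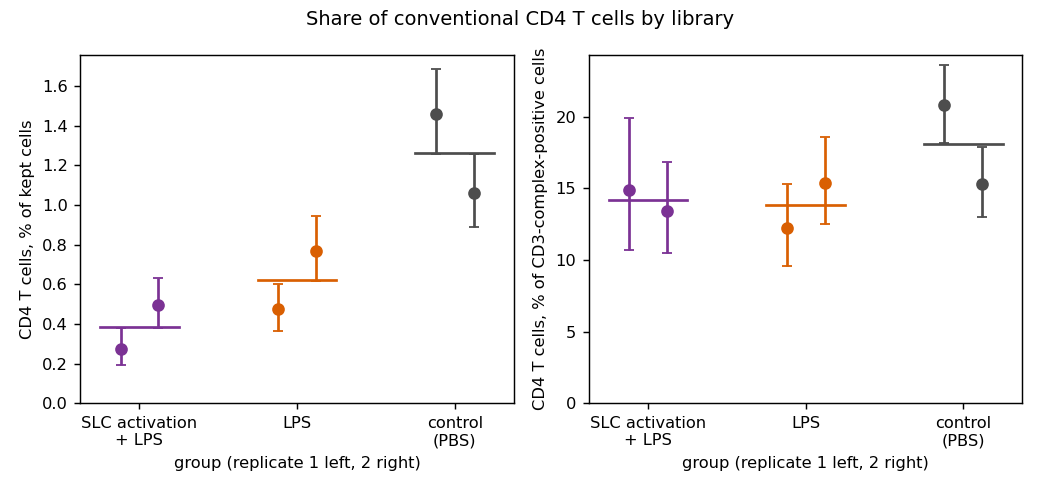
CD4 T cells as a percentage of all kept cells (left panel) and of cells positive for the CD3 complex (right panel), 1 point per library with its 95% exact binomial interval and a line at each group mean, SLC plus LPS left, then LPS, then control. In the left panel the 4 LPS-treated libraries, at most 0.767%, lie under both control libraries, at least 1.06%, and in the right panel the groups overlap or nearly so.

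Gene levels were compared on UMIs summed per library with edgeR's quasi-likelihood test over 4385 genes, with Benjamini-Hochberg adjustment, and a gene was called at an adjusted p under 0.05. Few genes passed: 4 for LPS against control (0.0912% of the genes tested), of which 3 rose (0.0684%) and 1 fell (0.0228%), 0 for SLC plus LPS against LPS (0%) and 1, which rose, for SLC plus LPS against control (0.0228%). Unadjusted p was under 0.05 for 242, 180 and 296 genes in the same order (5.52%, 4.1% and 6.75%). By direction this was 3.31% higher and 2.21% lower for LPS against control, 1.51% higher and 2.6% lower for SLC plus LPS against LPS, and 3.69% higher and 3.06% lower for SLC plus LPS against control. DESeq2 called 18, 1 and 20 genes. The 3 comparisons share libraries and are not independent. Nothing in the labels beyond the words biological replicate describes how the mice of a group were kept apart, so p-values measure the spread between these libraries.

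Gpnmb is a glycoprotein gene of macrophages and other phagocytic cells. With all gated cells used, it was the one called gene of LPS against control whose level was not mostly expected from free RNA. It measured 284 and 155 CPM in LPS and 15.1 and 23.6 CPM in control (log2 fold change 3.48, SE 0.54, adjusted p = 0.0428 in edgeR), and 21.3 and 9.37 CPM in SLC plus LPS. Both LPS libraries were high, but 1 cell held 27 of 46 Gpnmb UMIs in LPS replicate 1 and 26 of 39 in replicate 2. With cells rich in another type's transcripts left out, the log2 fold change was 2.23 with an adjusted p of 0.495. The call was also lost with control replicate 1, SLC plus LPS replicate 1 or SLC plus LPS replicate 2 left out (adjusted p = 0.259, 0.0539 and 0.0677), with cells of at least 1000 UMIs (0.0572) and with the replicate number as a block (0.0772).

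The other called genes are known mainly from cells that are not T cells. With all gated cells used, free RNA was estimated at over 60% of the level of each in the group where it was high. Without cells rich in another type's transcripts, the estimate was 42.4% for Inhba and 65.3% for Acod1 in LPS. It was then 71.6% for Inmt in control and 100% for Acod1 in SLC plus LPS. Acod1, the itaconate-making enzyme of activated macrophages and neutrophils, measured 478 and 656 CPM in SLC plus LPS, 711 and 597 CPM in LPS and 47.9 and 47.2 CPM in control. It rose in SLC plus LPS against control (log2 fold change 3.56, SE 0.39, adjusted p = 0.00652 in edgeR) and in LPS against control (3.75, SE 0.39, adjusted p = 0.00342). Free RNA was estimated to give 73.3% of its level in SLC plus LPS and 99.7% in LPS. Inhba, which encodes the activin A subunit, measured 185 and 103 CPM in LPS, where 26 of 26 UMIs of replicate 2 came from 1 cell, against 2.52 and 0 CPM in control, that is 1 UMI in all (adjusted p = 0.0139). Inmt, a methyltransferase of lung fibroblasts, fell to 18.5 and 15.9 CPM in LPS, against 237 and 224 CPM in control (log2 fold change -3.73, SE 0.48, adjusted p = 0.0139), with 74.2% of the control level expected from free RNA. With the 6% of cells scoring highest as doublets removed, Acod1 and Inmt no longer passed. The log2 fold change of Acod1 was then 2.49 (adjusted p = 0.918) for SLC plus LPS against control. It was 2.94 (adjusted p = 0.786) for LPS against control, and that of Inmt was -4.37 (adjusted p = 0.784). With cells rich in another type's transcripts left out instead, Acod1, Inhba and Inmt still passed in edgeR. For LPS against control the adjusted p was then 0.00284 for Acod1, 0.0228 for Inhba and 0.0045 for Inmt. For SLC plus LPS against control it was 0.0185 for Acod1. Without control replicate 1 the adjusted p was 0.0962 for Acod1 in SLC plus LPS against control and 0.0525 for Inmt, and without control replicate 2 it was 0.0501 for Acod1 in SLC plus LPS against control.

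Of the marker lists of those other cells, the neutrophil markers were higher and the fibroblast markers lower in both treated groups than in control. The 14 neutrophil markers summed to 8217 and 11420 CPM in SLC plus LPS, 8704 and 6611 CPM in LPS and 3982 and 4074 CPM in control, and 9 of 9 tested members had a log2 fold change above 0 in both comparisons with control. These sums include Srgn, which is not limited to neutrophils here. It was found in 96.7% of CD4 T cells and 88.0% of B cells, against 21.3% of CD4 T cells for S100a8. The sums without Srgn are not reported here. Ly6g, a defining neutrophil marker, was at 0 in SLC plus LPS replicate 1 and in both control libraries. Fibroblast markers summed to 1318 and 984 CPM in SLC plus LPS, 1527 and 1531 CPM in LPS and 2865 and 3991 CPM in control. Monocyte and macrophage markers summed to 7898 and 5668 CPM in SLC plus LPS, 13358 and 1496 CPM in LPS and 1599 and 3208 CPM in control, so LPS replicate 2 lay below both control libraries, and 1 cell held 1095 of the 2161 UMIs in LPS replicate 1. Dendritic cell markers summed to 1095 and 2042 CPM in SLC plus LPS, 1749 and 227 CPM in LPS and 1952 and 3428 CPM in control. Of 5 tested members 0 had a log2 fold change above 0 against control, for LPS (50.2% of all genes) or for SLC plus LPS (48.8%). In control 1 cell held 298 of 774 of these UMIs in replicate 1 and 399 of 871 in replicate 2. Without cells rich in another type's transcripts the sums were 1153 and 889, 1455 and 134, and 820 and 1108 CPM in the same order. B cell markers stayed between 15.9 and 272 CPM in every library. The part of these lists in the gene results was not tested.

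The interferon-induced GTPases, the guanylate-binding proteins (Gbp) and immunity-related GTPases (Irg) that attack vacuoles of intracellular microbes, had the highest median log2 fold change for LPS against control among the 21 gene lists compared, marker lists of other cell types left out (the neutrophil markers had 1.85). Without LPS replicate 2 this rank was lost, when the cell cycle list had 1.09, the hypoxia list 0.88 and the GTPases 0.55. No member passed the adjusted threshold in edgeR, and DESeq2 called 1, Gbp2, in both comparisons with control. Of 17 members in the files 12 had enough UMIs to be tested, and all 12 had a log2 fold change above 0 for LPS against control (50.2% of all genes tested), 10 of them with both LPS libraries above both control libraries (16.2% of all genes) and 8 higher with an unadjusted p under 0.05 (3.31%). Their median log2 fold change was 1.73, beside 0.0015 over all genes, and 1.5 without the cells rich in another type's transcripts. Only 6 of the 12 had under 50% of their level in the higher group expected from free RNA, with a median of 1.41. For SLC plus LPS against control this held for all 12. In the comparison of SLC plus LPS with control 12 of 12 were above 0 (48.8% of all genes), 7 without overlap (17.9%) and 5 higher with an unadjusted p under 0.05 (3.69%), with a median of 1.35 (0.82 without SLC plus LPS replicate 2). Between SLC plus LPS and LPS 5 of 12 were above 0 (49.7% of all genes), none lay above LPS without overlap (13.5%), 1 lay below it (15.4%), and the median was -0.09. The size and sign of that median depend on single libraries: it was -0.83 without LPS replicate 1, 0.35 without LPS replicate 2 and -0.60 without SLC plus LPS replicate 2. The low-count filter keeps a gene that is high in only 1 group, so these counts describe the tested members, and near-identical Gbp and Irg copies may share reads, which leaves single members uncertain.

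Promoters of 4 members are printed here, the 250 bases upstream of each annotated start, because these genes lay together above control and interferon signals act through short promoter elements. The sequences are those of RefSeq on GRCm38.p6, matched by symbol, whereas the files were made on GRCm39, so only letters and not positions were carried over. They lie at chr3:142620413-142620662 (Gbp2), chr3:142530086-142530335 (Gbp7), chr11:58199306-58199555 (Igtp) and chr11:49076337-49076586 (Ifi47), all on the plus strand, and are written 5′ to 3′. Capitals mark matches to the core of the interferon-stimulated response element (ISRE), which is TTTC, 2 bases of any kind and TTTC, or of the gamma-activated site (GAS), TTCNNNGAA, on either strand.
Gbp2: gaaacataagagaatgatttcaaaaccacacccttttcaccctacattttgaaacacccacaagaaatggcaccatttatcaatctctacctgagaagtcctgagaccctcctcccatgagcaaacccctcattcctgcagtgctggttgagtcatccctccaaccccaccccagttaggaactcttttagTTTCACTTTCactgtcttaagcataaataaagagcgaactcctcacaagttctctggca
Gbp7: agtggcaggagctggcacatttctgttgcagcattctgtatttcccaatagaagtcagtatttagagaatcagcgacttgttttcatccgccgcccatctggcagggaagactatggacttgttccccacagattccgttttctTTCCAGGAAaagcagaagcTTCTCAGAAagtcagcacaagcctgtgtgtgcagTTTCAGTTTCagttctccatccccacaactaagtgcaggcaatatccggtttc
Igtp: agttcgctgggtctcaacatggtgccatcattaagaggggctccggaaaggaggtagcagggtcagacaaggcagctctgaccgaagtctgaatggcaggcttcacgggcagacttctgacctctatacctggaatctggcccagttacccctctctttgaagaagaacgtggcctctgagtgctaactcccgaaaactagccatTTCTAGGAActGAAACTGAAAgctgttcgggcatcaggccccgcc
Ifi47: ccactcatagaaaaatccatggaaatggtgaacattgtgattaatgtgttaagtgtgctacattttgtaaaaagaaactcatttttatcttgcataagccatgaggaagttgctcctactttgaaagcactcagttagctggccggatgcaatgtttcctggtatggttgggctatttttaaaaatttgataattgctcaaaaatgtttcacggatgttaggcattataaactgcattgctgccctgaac
Gbp2 has an ISRE core 59 bases before the start, Gbp7 an ISRE core at 53 bases and GAS cores at 106 and 87 bases, and Igtp an ISRE core at 34 bases and a GAS core at 45 bases. Ifi47 has no match in this window. Of the 12 tested GTPases 7 had a promoter in the table, and 6 of these held an ISRE core and 4 a GAS core, whereas among 27025 promoters 3.04% held an ISRE core and 7.18% a GAS core. Among 3488 promoters of genes tested in CD4 T cells the shares were 3.21% and 6.19%. Among 23 promoters of tested antiviral genes 9 held an ISRE core and 2 a GAS core. Both lists were picked as interferon-induced genes, so these shares describe the choice of genes. Such matches are letters only and were not tied to the measured levels by any test.

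Gbp2 measured 255 and 955.5 CPM in SLC plus LPS, 562.5 and 366 CPM in LPS and 80.7 and 90.5 CPM in control. All 4 LPS-treated libraries lay above both control libraries, with a log2 fold change of 2.82 (SE 0.56, adjusted p = 0.207 in edgeR) for SLC plus LPS against control and 2.42 (SE 0.55, adjusted p = 0.277) for LPS against control. DESeq2 called both (adjusted p = 0.00313 for SLC plus LPS and 0.0204 for LPS). In edgeR the value for SLC plus LPS was 1.56 (adjusted p = 0.716) without SLC plus LPS replicate 2, and it passed without replicate 1 (3.49, adjusted p = 0.0149). A Gbp2 UMI was found in 8 of 37 and 33 of 64 cells in SLC plus LPS and 28 of 65 and 40 of 89 in LPS. In control it was found in 25 of 185 and 18 of 132. Of these UMIs 1 cell held 12 of 24 in SLC plus LPS replicate 1 and 34 of 102 in replicate 2. In LPS 1 cell held 29 of 91 in replicate 1 and 9 of 92 in replicate 2. Ifi47, an immunity-related GTPase, measured 128 and 253 CPM in SLC plus LPS, 204 and 187 CPM in LPS and 63.0 and 23.6 CPM in control. Its log2 fold changes were 2.06 (SE 0.52, adjusted p = 0.3333) and 2.08 (SE 0.49, adjusted p = 0.277). Here too the LPS-treated libraries did not overlap with control, and Ifi47 passed for LPS against control with either LPS library left out (1.97, adjusted p = 0.0316, without replicate 1 and 2.20, adjusted p = 0.0194, without replicate 2). Igtp, another immunity-related GTPase, measured 117 and 299.8 CPM in SLC plus LPS, 185 and 175 CPM in LPS and 75.7 and 43.3 CPM in control. Gbp7 measured 181 and 309 CPM in SLC plus LPS, 185 and 266.5 CPM in LPS and 134 and 129.9 CPM in control, the smallest separation of the 4. Gbp4 measured 95.7 and 65.6 CPM in SLC plus LPS, 98.9 and 183 CPM in LPS and 60.5 and 55.1 CPM in control, again without overlap between treated and control libraries. Free RNA was estimated at 13.2% of the Gbp2 level in SLC plus LPS and 59.4% in LPS, and at 16.3% in LPS without cells rich in another type's transcripts. For Ifi47 in LPS the estimate was 42.4%, and 7.83% without those cells.

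Antiviral genes also lay above control in LPS. Of 31 tested members 30 had a log2 fold change above 0 for LPS against control (50.2% of all genes), 18 higher without overlap (16.2%) and 15 higher with an unadjusted p under 0.05 (3.31%), with a median of 0.99 (0.65 without LPS replicate 2). Of the 31, 22 had under 50% of their level in the higher group expected from free RNA, with a median of 0.96. The median was 0.48 for SLC plus LPS against control, with 23 of 31 above 0 (48.8% of all genes), and -0.33 for SLC plus LPS against LPS, with 5 of 31 above 0 (49.7%), 7 below LPS without overlap (15.4%) and 5 lower with an unadjusted p under 0.05 (2.6%). The last 2 medians move with single libraries: against control it was 0.05 without SLC plus LPS replicate 2, and against LPS it was 0.01 without LPS replicate 2, -0.10 without SLC plus LPS replicate 1, -0.69 without LPS replicate 1 and -0.85 without SLC plus LPS replicate 2. None of the 31 passed the adjusted threshold in edgeR in any comparison, whereas DESeq2 called Ly6a in both comparisons with control. Rsad2, the antiviral enzyme viperin, passed in edgeR for LPS against control with cells rich in another type's transcripts left out (3.52, adjusted p = 0.0228).

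Ly6a, which encodes the surface protein Sca-1 of activated T cells, measured 733 and 1977 CPM in SLC plus LPS, 1212 and 1838 CPM in LPS and 373 and 346 CPM in control. Its libraries separated from control in both treated groups, with log2 fold changes of 1.90 (SE 0.44, adjusted p = 0.290 in edgeR) and 2.06 (SE 0.44, adjusted p = 0.212). DESeq2 called both (adjusted p = 0.0324 for SLC plus LPS and 0.0128 for LPS). The value for SLC plus LPS was 1.02 (adjusted p = 0.716) without SLC plus LPS replicate 2 and passed without replicate 1 (2.47, adjusted p = 0.0429). With LPS replicate 1 left out Ly6a passed in both comparisons with control (adjusted p = 0.0296 and 0.0124). Without LPS replicate 2 Ly6a passed for SLC plus LPS against control (1.92, adjusted p = 0.0198) and missed the threshold for LPS against control (1.81, adjusted p = 0.0585). Ly6a was found in 53.1% of CD4 T cells and in 39.2% of B cells, which express it too. The nucleic acid sensor Zbp1 measured 31.9 and 93.7 CPM in SLC plus LPS, 80.4 and 79.55 CPM in LPS and 20.2 and 15.7 CPM in control.

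MHC class I genes were nearer to the background, with 14 of 17 tested members above 0 for LPS against control (50.2% of all genes) and a median of 0.54 (0.07 without LPS replicate 1). Tap1, which pumps peptides to MHC class I, measured 138 and 215.5 CPM in SLC plus LPS, 167 and 195 CPM in LPS and 75.7 and 51.2 CPM in control, with a log2 fold change of 1.45 (SE 0.42, adjusted p = 0.430) and 1.47 (SE 0.40, adjusted p = 0.373) in edgeR. B2m, the invariant MHC class I chain, measured 3083 and 3738 CPM in SLC plus LPS, 5594 and 5079 CPM in LPS and 4151 and 3129 CPM in control. Between SLC plus LPS and LPS the class had 3 of 17 members above 0 (49.7% of all genes), 5 below LPS without overlap (15.4%) and a median of -0.17, which was 0.16 without LPS replicate 1, -0.66 without LPS replicate 2 and -0.51 without SLC plus LPS replicate 2. Near-identical H2 copies may share reads.

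**Figure D3:**
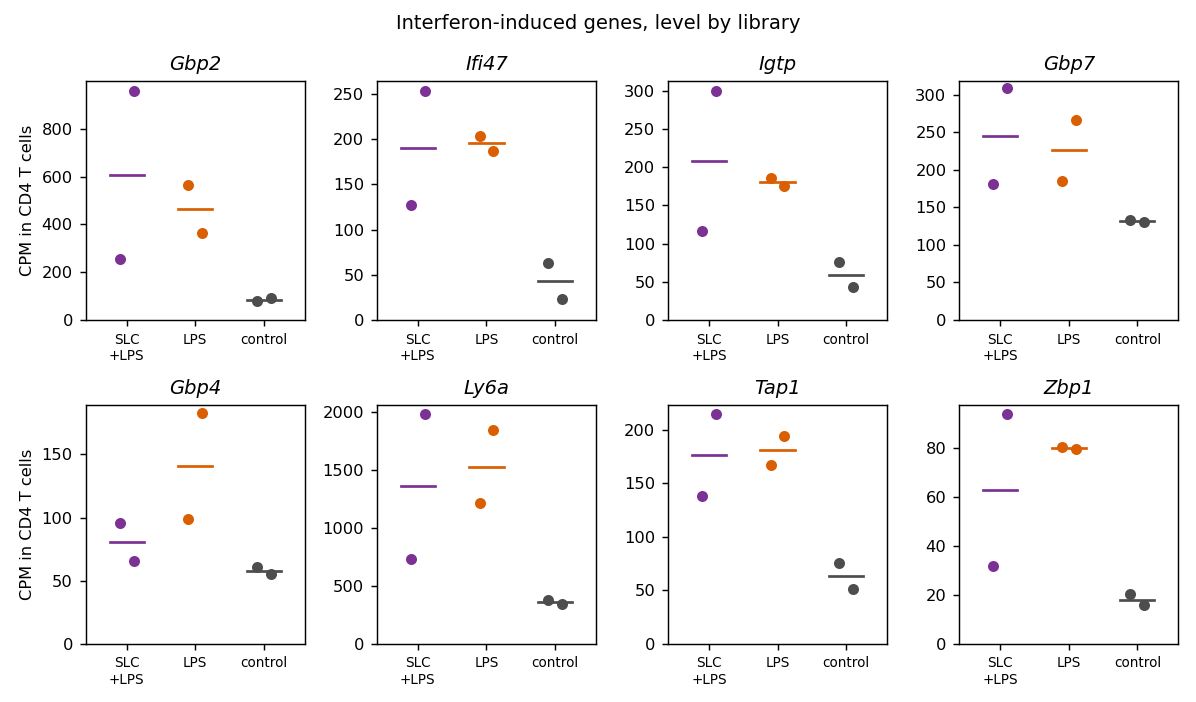
Levels of 8 interferon-induced genes in CD4 T cells (CPM, 1 point per library, line at the group mean), SLC plus LPS left, then LPS, then control. Gbp2, Ifi47, Igtp, Gbp7, Gbp4, Ly6a, Tap1 and Zbp1 have both LPS-treated groups above control in every library. None passed the adjusted threshold in edgeR, and DESeq2 called Gbp2 and Ly6a in both comparisons with control.

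Among costimulatory genes, Tnfrsf4, Tnfsf8 and Ctla4 lay above control in both treated groups, and free RNA was estimated at 0.519%, 0.5998% and 0.743% of their LPS levels. Tnfrsf4 encodes OX40, a receptor that sustains activated CD4 T cells. It measured 53.15 and 112 CPM in SLC plus LPS, 98.9 and 123 CPM in LPS and 15.1 and 15.7 CPM in control. Both treated groups lay above control without overlap, with log2 fold changes of 2.40 (SE 0.61, adjusted p = 0.3333 in edgeR) for SLC plus LPS and 2.80 (SE 0.55, adjusted p = 0.173) for LPS (2.70, adjusted p = 0.0534, without LPS replicate 2). Without LPS replicate 1 the value for LPS passed (2.91, adjusted p = 0.00521). It was found in 3 of 37 and 7 of 64 cells in SLC plus LPS, 11 of 65 and 17 of 89 in LPS and 6 of 185 and 4 of 132 in control, and in 0.386% of B cells. Tnfrsf4 is also on the list of regulatory T cell markers. Over all libraries it was found in 8.39% of the gated cells and in 31.3% of 99 Foxp3-positive cells. Of its 48 gated cells 12 also held Ikzf2. The part of regulatory T cells whose Foxp3 was not captured in the Tnfrsf4 levels was not tested.

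Tnfsf8 encodes CD30 ligand, a member of the tumour necrosis factor family on activated T cells. It measured 202 and 309 CPM in SLC plus LPS, 309 and 640.4 CPM in LPS and 124 and 90.5 CPM in control, with log2 fold changes against control of 1.24 (SE 0.44, adjusted p = 0.650) and 2.12 (SE 0.42, adjusted p = 0.173) in edgeR. All 4 treated libraries exceeded both controls, although 1 cell held 41 of 161 UMIs in LPS replicate 2. For LPS against control Tnfsf8 passed the threshold with cells rich in another type's transcripts left out (2.22, adjusted p = 0.0158), in DESeq2 (adjusted p = 0.0239) and in edgeR without LPS replicate 1 (2.51, adjusted p = 5.9e-05) or replicate 2 (1.57, adjusted p = 0.0359). Tnfrsf4 and Tnfsf8 were found together in 23 cells.

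Ctla4 measured 308 and 365 CPM in SLC plus LPS, 383 and 581 CPM in LPS and 151 and 240.1 CPM in control, ordered LPS, SLC plus LPS, control with no overlap between neighbours. Its log2 fold change was 0.79 (SE 0.39, adjusted p = 0.780 in edgeR) for SLC plus LPS against control and 1.30 (SE 0.37, adjusted p = 0.430) for LPS against control. The regulatory T cell markers, which the gate lets through apart from Foxp3, summed to 531 and 937 CPM in SLC plus LPS, 779 and 1066 CPM in LPS and 419 and 535 CPM in control, and their part in the Ctla4 levels was not tested. Cxcr4, the receptor for the retention chemokine CXCL12, measured 117 and 141 CPM in SLC plus LPS, 129.8 and 318 CPM in LPS and 68.1 and 47.2 CPM in control (log2 fold change 1.93 for LPS against control, SE 0.46, adjusted p = 0.277 in edgeR). That value rests on LPS replicate 2: it was 1.20 (adjusted p = 0.431) without it and passed without replicate 1 (2.37, adjusted p = 0.00105). The activation list as a whole stayed near the background, with 8 of 14 tested members above 0 and a median of 0.19 for LPS against control, 7 of 14 and -0.01 for SLC plus LPS against LPS, and 9 of 14 and 0.31 for SLC plus LPS against control. Cd69 and Icos, both early activation genes, had groups that overlapped or nearly met.

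Of the Th1 list 8 of 10 tested members were above 0 for LPS against control (50.2% of all genes), with 6 above control without overlap (16.2%) and a median of 0.90, which was 1.59 without control replicate 1 and 0.58 without control replicate 2. Il18r1, the interleukin 18 receptor, measured 244.5 and 281 CPM in SLC plus LPS, 148 and 207 CPM in LPS and 118.5 and 110.2 CPM in control, highest in SLC plus LPS and lowest in control without overlap. Its log2 fold change was 1.19 for SLC plus LPS against control (SE 0.37, adjusted p = 0.525 in edgeR). The list also had 8 of 10 above 0 for SLC plus LPS against control with a median of 0.85, which was -0.47 without SLC plus LPS replicate 2. Ifng itself measured 0 and 197 CPM in SLC plus LPS, 142 and 3.98 CPM in LPS and 7.56 and 3.94 CPM in control, so 1 library of each treated group carried nearly all of it. Il17a measured 95.7 and 9.37 CPM in SLC plus LPS, 74.2 and 151 CPM in LPS and 7.56 and 106 CPM in control, with replicates of 1 group as far apart as the groups.

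Genes of naive and recirculating T cells lay lower in SLC plus LPS than in either other group, though none passed the adjusted threshold in edgeR or DESeq2. Against LPS 0 of 12 tested members were above 0 (49.7% of all genes), 5 were below LPS without overlap (15.4%), and the median log2 fold change was -0.70. That median was -0.17 without LPS replicate 2, -0.33 without SLC plus LPS replicate 1 and -1.41 without SLC plus LPS replicate 2. Against control 0 of 12 were above 0 (48.8%) and 8 were below control without overlap, beside 21.8% of all genes, with a median of -0.77. It was -0.24 without SLC plus LPS replicate 1 and -1.52 without replicate 2. For LPS against control 7 of 12 were above 0 and the median was 0.03, which was 0.46 without LPS replicate 1 and -0.69 without LPS replicate 2, so the position of LPS relative to control on this list depends on which library is kept.

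Igfbp4, an insulin-like growth factor binding protein gene typical of naive CD4 T cells, measured 159 and 93.7 CPM in SLC plus LPS, 272 and 290.4 CPM in LPS and 343 and 394 CPM in control. The 3 groups did not overlap, and the log2 fold change was -1.14 (SE 0.40, adjusted p = 0.967 in edgeR) against LPS and -1.54 (SE 0.39, adjusted p = 0.3333) against control. Fibroblasts express Igfbp4 too, and 38.6% of its control level was expected from free RNA. Lef1, a transcription factor of naive T cells with 5.01% expected from free RNA in control, measured 117 and 93.7 CPM in SLC plus LPS, 124 and 262 CPM in LPS and 247 and 256 CPM in control (log2 fold change -0.88 against LPS, SE 0.46, and -1.25 against control, SE 0.45, adjusted p = 0.967 and 0.650). S1pr1, the receptor T cells need to leave tissue and lymph nodes, measured 74.4 and 187 CPM in SLC plus LPS, 117 and 724 CPM in LPS and 350.5 and 331 CPM in control, with LPS replicate 2 far above the other libraries. Bcl2, a survival gene that naive T cells depend on, measured 53.15 and 74.9 CPM in SLC plus LPS, 61.8 and 135 CPM in LPS and 194 and 185 CPM in control, so that all 4 treated libraries lay below control (log2 fold change -1.55, SE 0.48, adjusted p = 0.527 for SLC plus LPS against control, and -0.92, SE 0.41, adjusted p = 0.893 for LPS against control). Tcf7, the partner of Lef1, measured 298 and 299.8 CPM in SLC plus LPS, 328 and 525 CPM in LPS and 424 and 307 CPM in control.

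**Figure D4:**
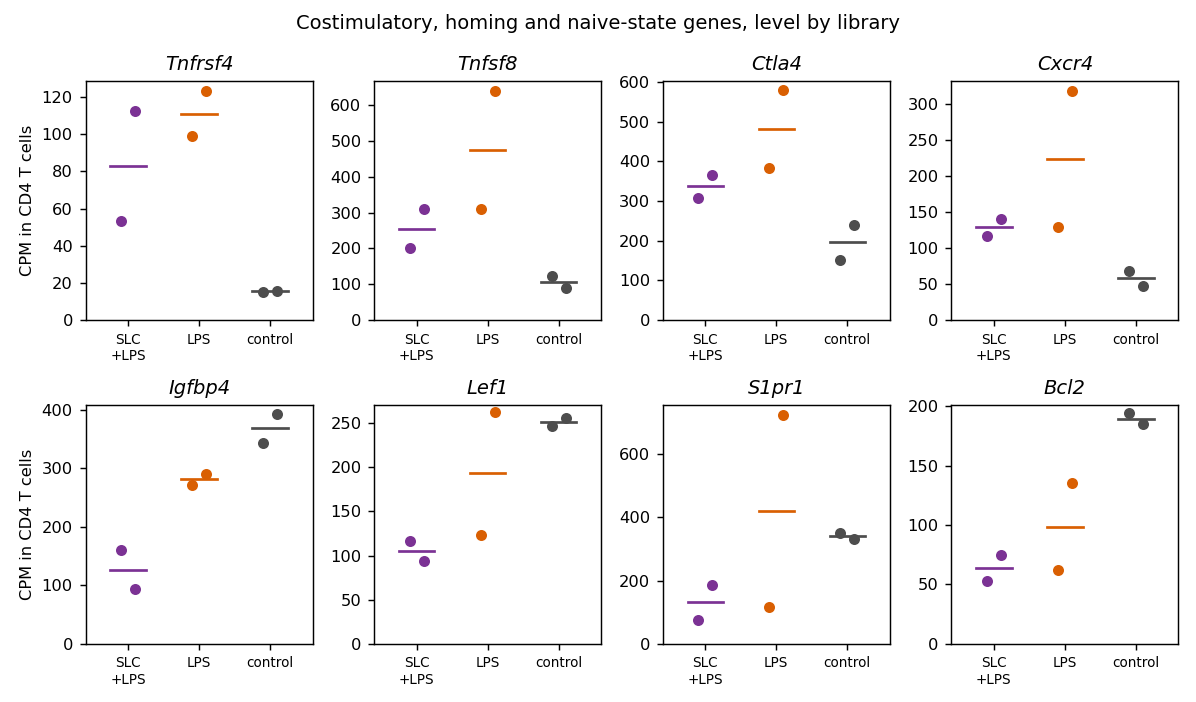
Levels of Tnfrsf4, Tnfsf8, Ctla4 and Cxcr4 and of Igfbp4, Lef1, S1pr1 and Bcl2 in CD4 T cells (CPM, 1 point per library, line at the group mean), SLC plus LPS left, then LPS, then control. The first 4 genes are above control in all 4 LPS-treated libraries, and Igfbp4, Lef1 and Bcl2 are below control in both SLC plus LPS libraries. None passed the adjusted threshold in edgeR, and DESeq2 called Tnfsf8 for LPS against control.

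The difference between SLC plus LPS and LPS, which carries the question of what brainstem activation adds, gave no called gene with edgeR and 1 with DESeq2. That gene, H1f2, encodes a linker histone that packs chromatin. It measured 244.5 and 440.3 CPM in SLC plus LPS, 43.3 and 47.7 CPM in LPS and 126 and 228 CPM in control, so LPS was the low group and SLC plus LPS the high one. The log2 fold change was 2.91 (SE 0.49, adjusted p = 0.371 in edgeR; 2.95, adjusted p = 0.0436 in DESeq2). In edgeR it passed with control replicate 2 (2.91, adjusted p = 0.0232), LPS replicate 1 (2.90, adjusted p = 0.00359) or LPS replicate 2 (2.92, adjusted p = 0.0244) left out. It was found in 9 of 37 and 18 of 64 cells in SLC plus LPS, 6 of 65 and 9 of 89 in LPS and 25 of 185 and 29 of 132 in control. Tapt1 and Azi2, the second of which encodes an adaptor of the kinase TBK1, were lower in SLC plus LPS. Tapt1 measured 21.3 and 28.1 CPM in SLC plus LPS, that is 2 and 3 UMIs, and 105 and 111 CPM in LPS (log2 fold change -2.08, SE 0.57, adjusted p = 0.967 in edgeR). Azi2 measured 21.3 and 37.5 CPM in SLC plus LPS, that is 2 and 4 UMIs, and 129.8 and 115 CPM in LPS (log2 fold change -2.00, SE 0.55, adjusted p = 0.967 in edgeR). Ctnnb1, which encodes beta-catenin, measured 181 and 149.9 CPM in SLC plus LPS and 309 and 509 CPM in LPS (log2 fold change -1.30, SE 0.39, adjusted p = 0.967), and it passed without LPS replicate 1 (-1.57, adjusted p = 0.0283). Other genes with the smallest unadjusted p included Gpnmb, Dcn, Il6, Tcp11l2 and Slc35e2, all lower in SLC plus LPS, and for Il6 75 of 76 UMIs in LPS replicate 2 came from 1 cell.

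Of the lists bearing on nerve and hormone signals, most tested members lay below control in SLC plus LPS, and none passed the adjusted threshold in edgeR. Of the adrenergic, cholinergic and cAMP list 10 of 21 members were tested, with medians of -0.24 for SLC plus LPS against LPS, -0.30 for SLC plus LPS against control and -0.32 for LPS against control, and 1 of 10 was above 0 for SLC plus LPS against control (48.8% of all genes), with 4 below control without overlap (21.8%). Pde3b, a phosphodiesterase that degrades cAMP, measured 42.5 and 56.2 CPM in SLC plus LPS, 37.1 and 262 CPM in LPS and 232 and 193 CPM in control. Glucocorticoid receptor targets had medians of -0.34 for SLC plus LPS against LPS, -0.50 for SLC plus LPS against control and 0.14 for LPS against control over 9 tested genes, of which 2 were above 0 for SLC plus LPS against control and 4 lay below control without overlap. Nr3c1, the receptor itself, measured 138 and 140.5 CPM in SLC plus LPS, 154.5 and 469 CPM in LPS and 381 and 220.4 CPM in control, so that SLC plus LPS was the lowest group without overlap.

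Against control, further genes of SLC plus LPS with a small unadjusted p were Stx11, Hsph1 and Ifitm1. Stx11, a syntaxin needed for granule release, measured 202 and 253 CPM in SLC plus LPS and 68.1 and 63.0 CPM in control (log2 fold change 1.78, SE 0.40, adjusted p = 0.248 in edgeR). Hsph1, a heat shock chaperone, measured 468 and 225 CPM in SLC plus LPS and 80.7 and 98.4 CPM in control (1.95, SE 0.43, adjusted p = 0.245). Ifitm1, an interferon-induced membrane protein, measured 138 and 375 CPM in SLC plus LPS and 10.1 and 7.87 CPM in control (4.73, SE 0.83, adjusted p = 0.116). The groups did not overlap for any of the 3, and all 3 passed with either LPS library left out of the shared fit (without LPS replicate 2, adjusted p = 0.0100 for Stx11, 0.00261 for Hsph1 and 2.15e-06 for Ifitm1). DESeq2 called Ifitm1 (adjusted p = 7.99e-04). Of its UMIs 1 cell held 10 of 13 in SLC plus LPS replicate 1 and 14 of 40 in replicate 2. Slfn4, Retnlg, S100a8, Oasl2 and Cd300lf were also among the 10 smallest. Retnlg and S100a8 belong to the neutrophil markers given above, and Oasl2 to the antiviral list. DESeq2 called Slfn4, Retnlg and S100a8 (adjusted p = 0.0215, 7.99e-04 and 9.38e-05). Free RNA was estimated at 46.4%, 46.4% and 42.7% of their levels in SLC plus LPS. Without cells rich in another type's transcripts these estimates were 100%, 80.2% and 89.6%. In SLC plus LPS replicate 2, 1 cell held 31 of 60 Retnlg UMIs and 1 cell held 106 of 180 S100a8 UMIs.

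Of the remaining lists, hypoxia and glycolysis genes lay above control in both treated groups: 12 of 14 tested members were above 0 for SLC plus LPS (48.8% of all genes), 11 of them without overlap (17.9%), with a median of 0.79. For LPS 13 of 14 were above 0 (50.2%), 4 of them without overlap (16.2%), with a median of 0.63, which was 0.02 without LPS replicate 1 and 0.23 without the cells rich in another type's transcripts. Ldha, which makes lactate, measured 510.2 and 665 CPM in SLC plus LPS, 593 and 290.4 CPM in LPS and 323 and 268 CPM in control. Hif1a, the oxygen-sensing factor that drives this programme, measured 287 and 440.3 CPM in SLC plus LPS, 346 and 477 CPM in LPS and 227 and 209 CPM in control. Cell cycle genes had medians of 0.61 for SLC plus LPS against control and 0.43 for LPS against control, which ran from -0.14 (without SLC plus LPS replicate 1) to 0.99 (without SLC plus LPS replicate 2) and from -0.24 (without LPS replicate 1) to 1.09 (without LPS replicate 2) when 1 library was left out. Translation genes had medians of 0.18 for SLC plus LPS against LPS, 0.09 for SLC plus LPS against control and -0.18 for LPS against control. The T cell lineage list stayed near 0, with medians of 0.05 for SLC plus LPS against LPS, -0.02 for SLC plus LPS against control and -0.07 for LPS against control. A pair of feedback inhibitors of cytokine signalling, Socs2 and Cish, stood lower in LPS than in SLC plus LPS. Socs2 measured 42.5 and 112 CPM in SLC plus LPS, 37.1 and 15.9 CPM in LPS and 116 and 102 CPM in control. Cish measured 106 and 74.9 CPM in SLC plus LPS, 37.1 and 15.9 CPM in LPS and 27.7 and 19.7 CPM in control. SLC plus LPS lay above LPS without overlap for both, and neither passed the adjusted threshold in edgeR or DESeq2. For Socs2 the nearest libraries nearly met, at 42.5 CPM in SLC plus LPS and 37.1 CPM in LPS. In their list of PIM, SOCS and cytokine receptor genes, 2 of 20 tested members lay above LPS without overlap (13.5% of all genes). The list median for SLC plus LPS against LPS was 0.08, so the list as a whole did not stand out.

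**Figure D5:**
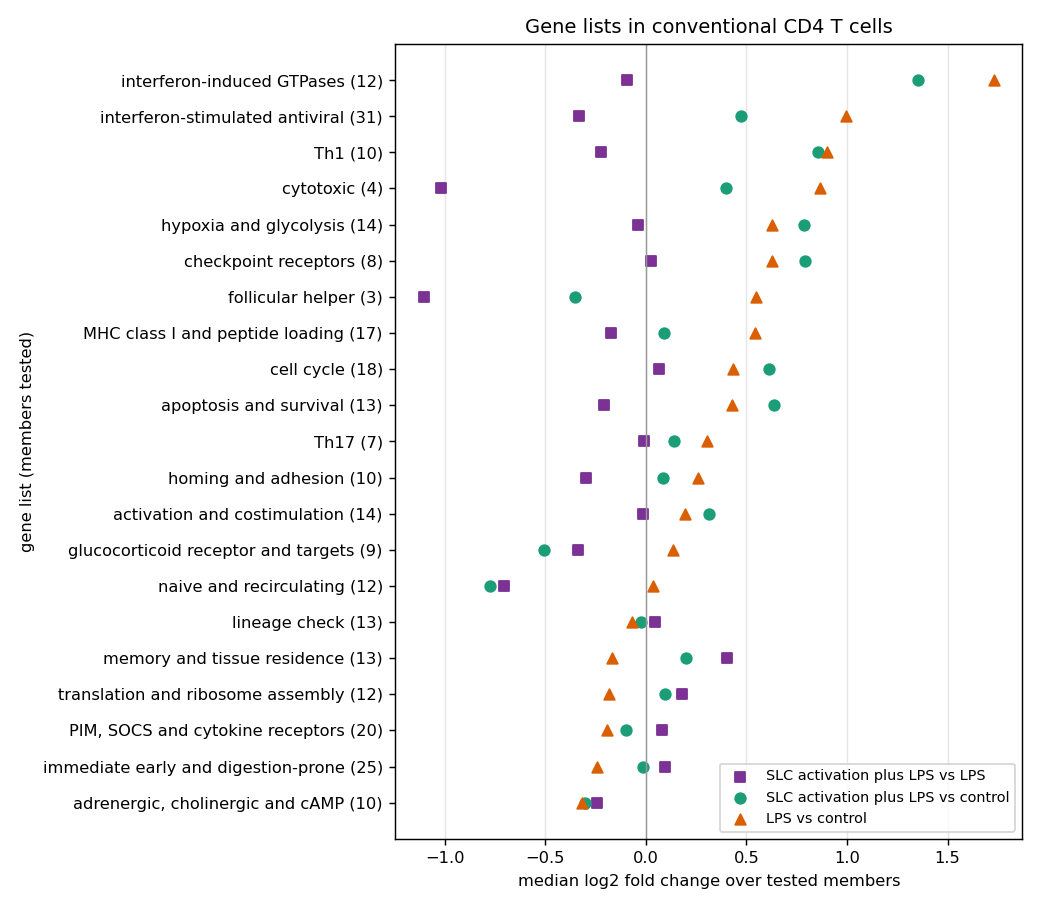
Median log2 fold change of the tested members of 21 gene lists in CD4 T cells, for SLC plus LPS against LPS (purple squares), SLC plus LPS against control (green circles) and LPS against control (orange triangles), with a line at 0. The interferon-induced GTPases lie furthest right against control, at 1.35 and 1.73, and at -0.09 between the treated groups, where single libraries set the sign, and the naive list lies left of 0 in both comparisons of SLC plus LPS.

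Whether a response differed between CD4 and CD8 T cells was tested as an interaction over 5558 genes, with the library as a block because both cell types came from the same mouse. It passed for 4 genes in LPS against control (0.072%, and 3.51% at an unadjusted p under 0.05), 0 in SLC plus LPS against LPS (0%; 259 genes, 4.66%, at an unadjusted p under 0.05, and 0 in DESeq2) and 4 in SLC plus LPS against control (0.072%, and 4.5% unadjusted). No interferon-induced GTPase, antiviral, costimulatory or naive T cell gene was among them, so the patterns above were not shown to be particular to CD4 T cells. With the cells rich in another type's transcripts left out, none passed in edgeR in any of the 3 comparisons, although some of the differences kept most of their size.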

How the data were processed

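Single-cell RNA was measured in 6 mouse lung libraries. The authors deposited matrices of raw UMI counts, with genes in rows and barcodes in columns. No counting program is named in the sources used here. The builds GRCm39 and mm39 are named per the submitters' processing notes, and sequencing was paired end on the DNBSEQ-T7, per the labels' protocols. Cells were kept at 500 or more UMIs, 300 or more genes and under 20% mitochondrial UMIs. Members and gene lists were chosen with earlier results of these data known, and the examples named within each list were chosen after their values were seen.

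UMIs were summed per library and tested with edgeR 4.0.16 in R 4.3.3 (TMM factors, filterByExpr, robust quasi-likelihood F test, all 6 libraries in 1 fit, Benjamini-Hochberg adjustment). DESeq2 1.42.0 was an alternative. CPM are UMIs per 1000000 summed UMIs. Shares were compared by exact permutation tests. Free RNA was estimated from barcodes of 1 to 99 UMIs and 20 fibroblast and epithelial markers. Scrublet in scanpy 1.11.5 (expected rate 0.06) scored doublets; none were removed, and an alternative dropped the 6% of cells scoring highest. Mixed cells (at least 15 UMIs, and over 2% of UMIs, from 1 of 8 marker lists) were defined after seeing the data and left out only in an alternative. B cells held at least 2 UMIs of Cd79a and Ms4a1 and none of the T cell genes.

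Genes named by rule were called, had at least 50 CPM in the higher group, under 50% expected from free RNA and no overlap (up to 10 each way); without enough calls, the 10 smallest unadjusted p were named. Single-gene values of some genes that the lists hold or the rule picks are not reported here. Other alternatives were no low-count filter, cells of at least 1000 UMIs, the replicate number as a block, free-RNA-prone genes left out, and each library left out. The scripts were tested on simulated data. Depth was 94079 to 396556 UMIs per summed library.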

Additional observations from a re-analysis of the deposited data

Results flagged for a closer look

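The response of 6 genes differed between CD4 and CD8 T cells beyond the adjusted threshold in edgeR's interaction test with the library as a block, 2 of them in both comparisons. Values are log2 fold changes in CD4 minus those in CD8 T cells, with group means in CPM. For SLC plus LPS against control the difference was 3.41 for the granzyme gene Gzmb (SE 0.47, adjusted p = 0.00103), which averaged 166 CPM in SLC plus LPS and 111 CPM in control in CD4 T cells, and 69.1 CPM in SLC plus LPS and 509 CPM in control in CD8 T cells. It was 2.49 for Acod1 (SE 0.40, adjusted p = 0.00546), with 567 CPM in SLC plus LPS and 47.6 CPM in control in CD4 T cells, and 375 CPM in SLC plus LPS and 187 CPM in control in CD8 T cells. It was 2.97 for the calprotectin gene S100a9 (SE 0.46, adjusted p = 0.00555), with 665 CPM in SLC plus LPS and 107 CPM in control in CD4 T cells, and 176 CPM in SLC plus LPS and 219 CPM in control in CD8 T cells. It was -4.90 for ENSMUSG00000120878 (SE 0.81, adjusted p = 0.00555), with 109 CPM in SLC plus LPS and 127 CPM in control in CD4 T cells, and 136 CPM in SLC plus LPS and 5.71 CPM in control in CD8 T cells.

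For LPS against control the difference was 2.49 for Thbs1, which encodes thrombospondin 1 (SE 0.36, adjusted p = 0.00255 in edgeR), with 438 CPM in LPS and 118 CPM in control in CD4 T cells, and 140 CPM in LPS and 231 CPM in control in CD8 T cells. It was -2.11 for the MHC class II gene H2-Aa, one of the dendritic cell markers given above (SE 0.37, adjusted p = 0.0298), with 242 CPM in LPS and 904 CPM in control in CD4 T cells, and 530 CPM in LPS and 393 CPM in control in CD8 T cells. It was 1.99 for Acod1 (SE 0.37, adjusted p = 0.0298), with 654 CPM in LPS and 47.6 CPM in control in CD4 T cells, and 611 CPM in LPS and 187 CPM in control in CD8 T cells. It was -3.91 for ENSMUSG00000120878 (SE 0.76, adjusted p = 0.0454), with 126 CPM in LPS and 127 CPM in control in CD4 T cells, and 100 CPM in LPS and 5.71 CPM in control in CD8 T cells. With mixed cells left out, 0 of these differences passed in edgeR, but their sizes did not move alike. For SLC plus LPS against control the difference was then 3.08 for Gzmb, -3.07 for ENSMUSG00000120878, 0.44 for Acod1 and 0.24 for S100a9, and for LPS against control it was -3.80 for ENSMUSG00000120878, 1.21 for Thbs1, -1.15 for H2-Aa and 0.63 for Acod1.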

How the results depend on the processing

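The counts of called genes depend strongly on the processing. For SLC plus LPS against LPS (0 genes) the count was 1 with DESeq2, 14 without a low-count filter, and 0 to 124 when 1 library was left out (124 without LPS replicate 1, 8 without LPS replicate 2, 2 without control replicate 2 or SLC plus LPS replicate 2). For SLC plus LPS against control (1 gene) it was 20 with DESeq2, 53 without a filter, 0 without likely doublets (the 6% of cells scoring highest), 3 with the replicate block, 6 with mixed cells left out, 0 with free-RNA-prone genes left out by either estimate, and 0 to 63 when 1 library was left out (62 without LPS replicate 1, 63 without LPS replicate 2, 6 and 2 without SLC plus LPS replicates 1 and 2, 0 without control replicate 2). A group left with 1 library is assumed to vary like the others. For LPS against control (4 genes) it was 18 with DESeq2, 85 without a filter, 0 without likely doublets, 9 without mixed cells, 1 and 2 without free-RNA-prone genes by the estimate with and without mixed cells, and 2 to 95 when 1 library was left out (95 without LPS replicate 1, 69 without LPS replicate 2, 2 without control replicate 1). The cause of these shifts was not tested, beyond that fewer cells or libraries enter and that the filter sets which genes are tested. CD4 minus CD8 counts were, for SLC plus LPS against LPS (0), 7 without a filter, 3 without free-RNA-prone genes and 0 to 16 with 1 library left out. For SLC plus LPS against control (4) they were 13 without a filter, 0 without the library block, 0 without mixed cells, 0 without free-RNA-prone genes (estimate without mixed cells) and 5 to 13 with 1 library left out. For LPS against control (4) they were 0 with DESeq2, 14 without a filter, 0 without the library block, 0 without mixed cells, 1 without free-RNA-prone genes (estimate without mixed cells) and 3 to 22 with 1 library left out. The CD4 share of CD3-positive cells, 0.346 points higher in SLC plus LPS than in LPS, was -0.0394 points without the exclusion of B cell, endothelial and macrophage genes and -1.22 to 1.91 points with 1 library left out (-0.361 without SLC plus LPS replicate 1). The CD4 minus CD8 value of Acod1 for SLC plus LPS against control was -0.0207 without likely doublets. Equal replicate numbers were not found to pair the mice, since deviations from the group means correlated at 0.117 between SLC plus LPS and LPS, -0.138 between SLC plus LPS and control and -0.21 between LPS and control over 2477 genes, and the replicate block gave 0, 3 and 4 called genes for SLC plus LPS against LPS, SLC plus LPS against control and LPS against control. Depth limits every gene result: 37 cells carry the smallest library.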

Other observations

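Among gene lists the report does not describe, the apoptosis and survival list held 2 genes ordered by group. Casp8, the initiator caspase of death receptors, measured 117 and 131 CPM in SLC plus LPS, 173 and 211 CPM in LPS and 68.1 and 90.5 CPM in control. Fas, a death receptor of activated T cells, measured 85.0 and 74.9 CPM in SLC plus LPS, 117 and 107 CPM in LPS and 35.3 and 51.2 CPM in control. For both genes LPS was the highest group and control the lowest, without overlap, and neither passed the adjusted threshold in edgeR (LPS against control, adjusted p = 0.445 and 0.575). Over the 13 tested genes of the list the median log2 fold change was -0.21 for SLC plus LPS against LPS. It was 0.64 for SLC plus LPS against control and 0.43 for LPS against control. Over all genes the medians were -0.002, -0.0122 and 0.0015 in the same order. Some members had under 50% of their level in the higher group expected from free RNA. Over these the medians were 0.29 (9 genes), 0.65 (12 genes) and 0.17 (8 genes) in the same order. The sign of the list median between the treated groups thus depended on which members were counted. Of the 13, 2 lay below LPS without overlap in SLC plus LPS (15.4% of all genes) and 1 above it (13.5%).

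Of homing genes, Ccr2, which draws cells to sites of inflammation, measured 85.0 and 65.6 CPM in SLC plus LPS, 111 and 215 CPM in LPS and 149 and 181 CPM in control, so SLC plus LPS was below both other groups without overlap. Slamf6, a receptor of follicular helper and memory T cells, measured 53.15 and 84.3 CPM in SLC plus LPS, 129.8 and 231 CPM in LPS and 98.4 and 189 CPM in control, also the lowest in SLC plus LPS without overlap.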
